A study of Mus musculus with 103 samples.

Results

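SREBP1, the transcription factor encoded by Srebf1, and the liver X receptors (LXR) were mapped by chromatin immunoprecipitation sequencing (ChIP-seq) in peritoneal macrophages of male C57BL/6 mice. The regions described here are distal shared peaks, that is, SREBP1 peaks away from transcript starts that were also called for LXR, and they numbered 2555 of 13984 SREBP1 peaks (18.3%). They were chosen by 2 criteria on the deposited peak lists, in the coordinates of the mouse build mm9. The peak centre lay over 1000 bases from every transcript start of the deposited RNA table, and at least 1 base was shared with one of the 40660 LXR peaks. Overlap and distance therefore chose these regions, and neither is used below as a finding about them.

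The macrophages came from mice 6 to 8 weeks old, were drawn to the peritoneum with thioglycollate, and were kept in low serum overnight before treatment. Both ChIP samples were labelled GW3965, a synthetic LXR agonist given at 1 µM. The SREBP1 label gave 18 h of GW3965, the growth protocol 24 h, and the header of the LXR peak list 5 h, while another field of the LXR sample described it as a control. The time of GW3965 may therefore differ between the lists. LXR chromatin was crosslinked with disuccinimidyl glutarate and formaldehyde and pulled down with a mixture of antibodies, so the LXR peaks do not separate LXR alpha from LXR beta. The SREBP1 list was called from a combined tag directory against an untreated input, and the LXR list against an input from cells given KLA (Kdo2-lipid A, an agonist of Toll-like receptor 4) for 24 h. Polyadenylated RNA was sequenced in 6 libraries of the same kind of macrophage: an untreated library for the 1 to 12 h times, KLA at 100 ng/ml for 1, 6 and 12 h, an untreated library for 24 h, and KLA for 24 h. No RNA library in this set received GW3965. Each condition had 1 library and each factor 1 peak list, so no difference below has a replicate check, and intervals cover counting error only.

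SREBP1 is made as a precursor held in the membrane of the endoplasmic reticulum by Scap and the Insig proteins, and its released amino-terminal part enters the nucleus and switches on genes of fatty acid and sterol synthesis. LXRs are nuclear receptors that bind DNA with RXR, are activated by oxysterols and desmosterol, and in macrophages drive cholesterol export through Abca1 and Abcg1. Srebf1 is itself a classic LXR target, so the pathways meet at that gene.

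The RNA libraries held between 2205187 and 2674826 reads recovered from the deposited values. Of 37 macrophage genes in the table, among them Csf1r, Cd68 and Itgam, 35 were detected at 1 RPKM (reads scaled to transcript length and library size) or more in at least 2 libraries, with a summed level from 20112 to 43977 RPKM. The 10 neutrophil genes summed to 53.7 and 54.1 RPKM untreated and to 54.6, 72.9, 110 and 132 with KLA for 1, 6, 12 and 24 h. Summed levels were 7.51 to 13.5 for 13 lymphocyte genes, 4.84 to 14.4 for 8 dendritic cell genes and 0.361 to 2.00 for 9 mast cell and eosinophil genes, of which Mcpt4, Cma1, Prg2 and Epx were listed at 0 in every library. The 9 genes of mesothelial cells and fibroblasts summed to 242 and 254 RPKM in the untreated libraries and 535 to 705 after KLA, although the median log2 ratio of the 9 was −0.32, −0.31 and −0.37 at 1, 6 and 12 h and 0.46 at 24 h. Pdpn was at least 2-fold higher at each time and Col1a1 at 24 h, while Lum was lower at 1, 6 and 12 h, Krt19 at 12 h and Upk3b at 24 h. No distal shared peak had one of these genes as its nearest. The part of such cells in the RNA values below was not tested.

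As a description of what the overlap criterion chose, LXR peaks lay under a larger part of the distal than of the promoter SREBP1 peaks. Of 8462 distal SREBP1 peaks, 2555 shared a base with LXR (30.2%, Wilson 95% interval 29.2 to 31.2), against 1253 of 5522 peaks within 1000 bases of a transcript start (22.7%, 21.6 to 23.8). Counted from the LXR side, 2551 of 33704 distal LXR peaks shared a base with SREBP1 (7.57%, 7.29 to 7.86). The share was larger for taller peaks, with height given by the authors as a tag count normalised to 10000000 tags. With the distal SREBP1 peaks ranked by height and divided into 10 groups of equal size, it stood between 20.6% and 26.0% in the lowest 6 groups and at 57.4% (54.0 to 60.7) in the highest group, which began at 16.8 tags. Promoter peaks went from 9.76% in the lowest group to 46.5% in the highest, and distal LXR peaks from 3.14% to 15.9%.

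**Figure D1:**
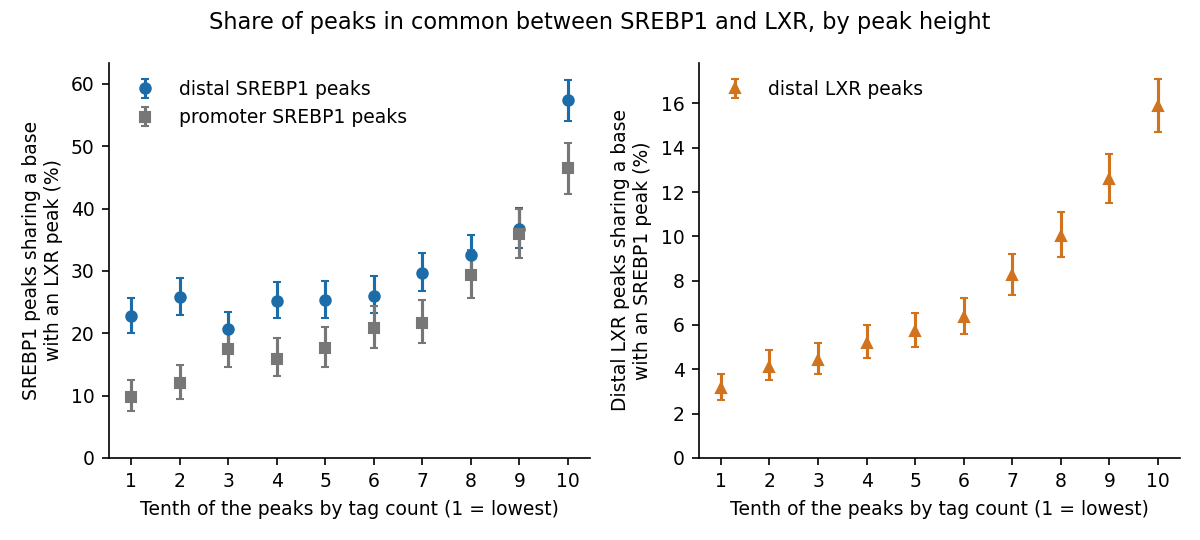
Share of peaks in common between the factors (y axis, percent) in 10 groups of equal size by normalised tag count (x axis, 1 is lowest). Points are single shares and bars Wilson 95% intervals for counting error; the left panel holds distal and promoter SREBP1 peaks and the right panel distal LXR peaks, with separate y scales. The highest group of distal SREBP1 peaks stands at 57.4%, the highest point of the left panel.

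The overlap criterion limits how far apart the factors' centres can lie, so the offsets are given as a description. Over the 2555 regions the median distance between the SREBP1 and LXR peak centres was 82 bases, with 198 (7.75%) within 10 bases, 812 (31.8%) within 50 and 2126 (83.2%) within 150. The called peaks were 194 bases wide for SREBP1 and 184 for LXR, and 1427 regions (55.9%) shared 97 bases or more. Some regions named below shared fewer, among them those near Dhcr7 (9 bases), Il20ra (12), Arl4c (14), Nr1h3 (17), Cd5l (33) and Tnfaip3 (34). The region inside Srebf1 shared 52. Just inside the overlap criterion, 14 regions shared exactly 1 base, among them peaks near Blnk (14.3 SREBP1 tags) and 1700016C15Rik (13.9). Just outside it, 12 distal SREBP1 peaks abutted an LXR peak and shared none, such as those near Cradd (18.0 tags) and Cd47 (14.3). At the distance criterion, peaks 1004 bases from the starts of Gpr35 and Abcb4 were in, and shared peaks 994 bases from Arrb2 and 1000 bases from 2210011C24Rik were out. Of the 5907 distal SREBP1 peaks without a shared LXR base, 1214 (20.6%) still had an LXR peak within 200 bases and 3487 (59.0%) within 5000.

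Tag counts spread widely within each list. The SREBP1 count had a lowest value of 6.15, a median of 12.3 and a highest of 164 tags, and the LXR count under the same regions ran from 10.7 through a median of 42.7 to 671. The SREBP1 library was 3.25 times deeper (24395376 against 7501248 tags), but its header gave 1.75% of tags in peaks against 17.85% for LXR. Counts are therefore ranked within a list and not compared between factors. Distal SREBP1 peaks without LXR had a median of 10.7 tags and reached 744, so the tallest distal SREBP1 peaks were not among the shared ones. Over the 2555 regions the tag counts of the factors had a Spearman rho of 0.26, a description of regions that share both libraries. In 4 groups of about equal size, from the lowest to the highest SREBP1 count, the median LXR count was 33.3, 40.0, 44.6 and 57.3 tags.

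The regions with most SREBP1 tags were of different kinds. Of the 2555, 6 had 8 or more tags in the SREBP1 input, near Axin2, Cdk8, Kpna1, Limd1, Gm8579 and Igf2bp3, with 77.5 to 164 SREBP1 tags, 6.29 to 8.49 times the input. All but the one near Igf2bp3, which had 77.5, were among the 10 highest SREBP1 counts. Their SREBP1 and LXR centres were at most 4 bases apart, against 87 of the 2549 other regions that close, and the LXR input was also high there (9.50 to 17.6 tags). The part of the input signal in these 6 counts was not tested. The other 5 of the top 10 were chr5:124942650-124942844 near Snrnp35 (158.6 SREBP1 and 253.3 LXR tags), chr5:125946143-125946337 near Aacs (130.8 and 21.3), chr17:43195601-43195795 inside Tnfrsf21 (127.1 and 21.3), chr16:57391545-57391739 inside Filip1l (109.4 and 44) and chr19:44341442-44341636 upstream of Scd2 (102.5 and 122.6). Aacs codes for acetoacetyl-CoA synthetase, a cytosolic supplier of lipid synthesis, and its peak lay 10003 bases upstream of the transcript start.

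By LXR tag count the order was different. The 10 highest were 670.6 tags between Scd3 and Scd2, 643.9 inside Srebf1, 617.2 near Hrc, 607.9 on the upstream side of Abca1, 574.6 upstream of Scd2, 542.6 near Scd1, 542.6 near Ugp2, 541.2 near Il20ra, 531.9 near Galnt4 and 522.6 inside Bcl2l1. At 6 of these (Hrc, the Abca1 side, Scd1, Ugp2, Il20ra and Bcl2l1) the SREBP1 count was only 11.9 to 16.8 tags. The peaks inside Srebf1 (92.6 SREBP1 tags) and between Scd3 and Scd2 (68) were high for both factors.

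**Figure D2:**
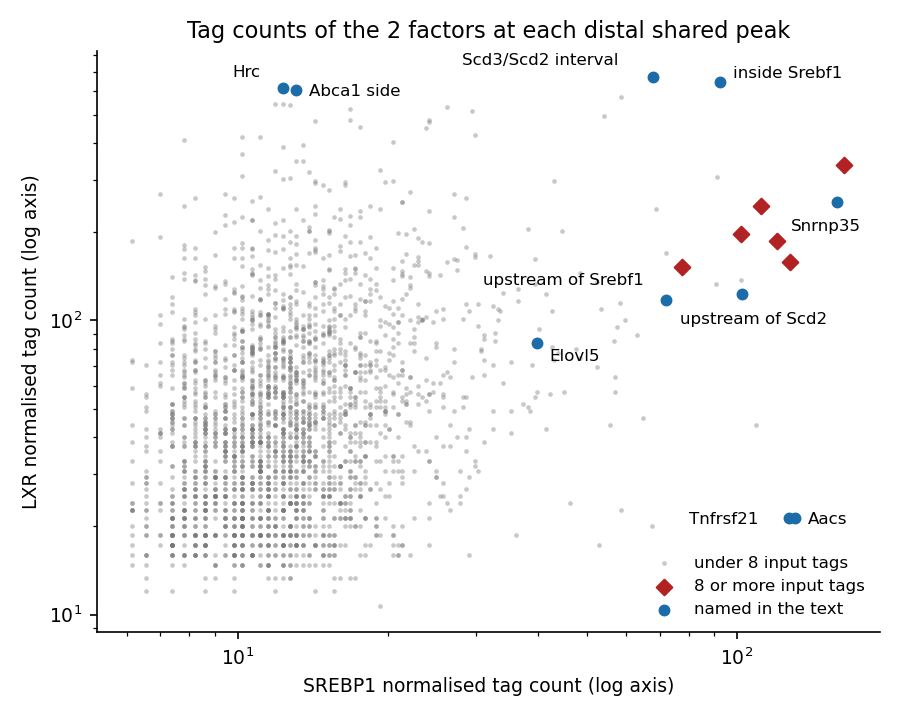
SREBP1 (x axis) and LXR (y axis) normalised tag counts of the 2555 distal shared peaks, both axes logarithmic. Each point is a region. Blue points are the labelled regions, which are some of those named in the text, and red diamonds are the 6 regions with 8 or more input tags. Grey points are all others. Most regions lie below 20.9 SREBP1 tags, the value that 90% do not exceed, and the red diamonds sit at 77.5 or more.

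Of the 2555 distal shared peaks, 1305 (51.1%, 49.1 to 53.0) fell between the ends of a listed transcript, against 58.6% (57.4 to 59.9) of the distal SREBP1 peaks without LXR. The distance criterion sets the lower end of the distances to the nearest start, which are given as a description. Their median was 19075 bases, against 17464 for the distal SREBP1 peaks without LXR: 469 regions (18.4%) were 1 to 5 kb away, 843 (33.0%) 5 to 20 kb, 1010 (39.5%) 20 to 100 kb and 233 (9.12%) farther. They had 2013 nearest genes, of which 1622 had 1 region and 391 had 2 or more. Sspn, Tomm20 and Rreb1 had 7 each, A230028O05Rik had 6, and Tnks, A530013C23Rik, Cmklr1 (the chemerin receptor) and Ly86 had 5 each. Within 20 kb of another distal shared peak lay 569 regions (22.3%). Chains of regions less than 20 kb apart held 3 or more regions in 38 cases, and the 7 chains of 4 lay nearest A530013C23Rik, B4galt5, Dppa3, Itgb2, Arhgap25, Tfeb and Pfpl. Itgb2 codes for the beta chain of leukocyte integrins and Tfeb for the master regulator of lysosomal genes. Only 8 regions were on chromosome X, of 88 SREBP1 and 666 LXR peaks there.

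Srebf1 had the strongest pair of shared regions at a regulator of the pathway. The first, at chr11:60023880-60024074, lay inside the gene, at −10.13 kb from its listed start in chromosome direction (the gene is on the minus strand), with 92.6 SREBP1 and 643.9 LXR tags. The second, at chr11:60036263-60036457, lay 2254 bases upstream of that start with 72.1 and 117.3 tags. No SREBP1 peak was within 1000 bases of the listed start. Srebf1 is known to use alternative starts and the table lists 1 transcript of it, so the inside region counts as distal only against that start. Its nearest listed start was that of the microRNA gene Mir6922, 8148 bases away.

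The stearoyl-CoA desaturase genes on chromosome 19, whose enzymes put a double bond into saturated fatty acids, held 6 distal shared peaks. Counted from the Scd2 start they lay at −45.32 kb (68 SREBP1 and 670.6 LXR tags), −26.63 kb (102.5 and 122.6), −9.33 kb (58.6 and 574.6), 20.91 kb (29.5 and 513.2), 94.96 kb (54.1 and 494.6) and 100.52 kb (11.9 and 542.6). The last 2 had Scd1 as the nearest gene, at 19075 and 13517 bases from its start. LXR counts were 494.6 tags or more at 5 of the 6, and the region at −26.63 kb, with the highest SREBP1 count, had the lowest LXR count. Scd2 and Scd1 also carried SREBP1 at the start: 63.1 tags at Scd2, shared with an LXR peak of 56 tags, and 32.8 tags at Scd1 with no shared LXR base.

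**Figure D3:**
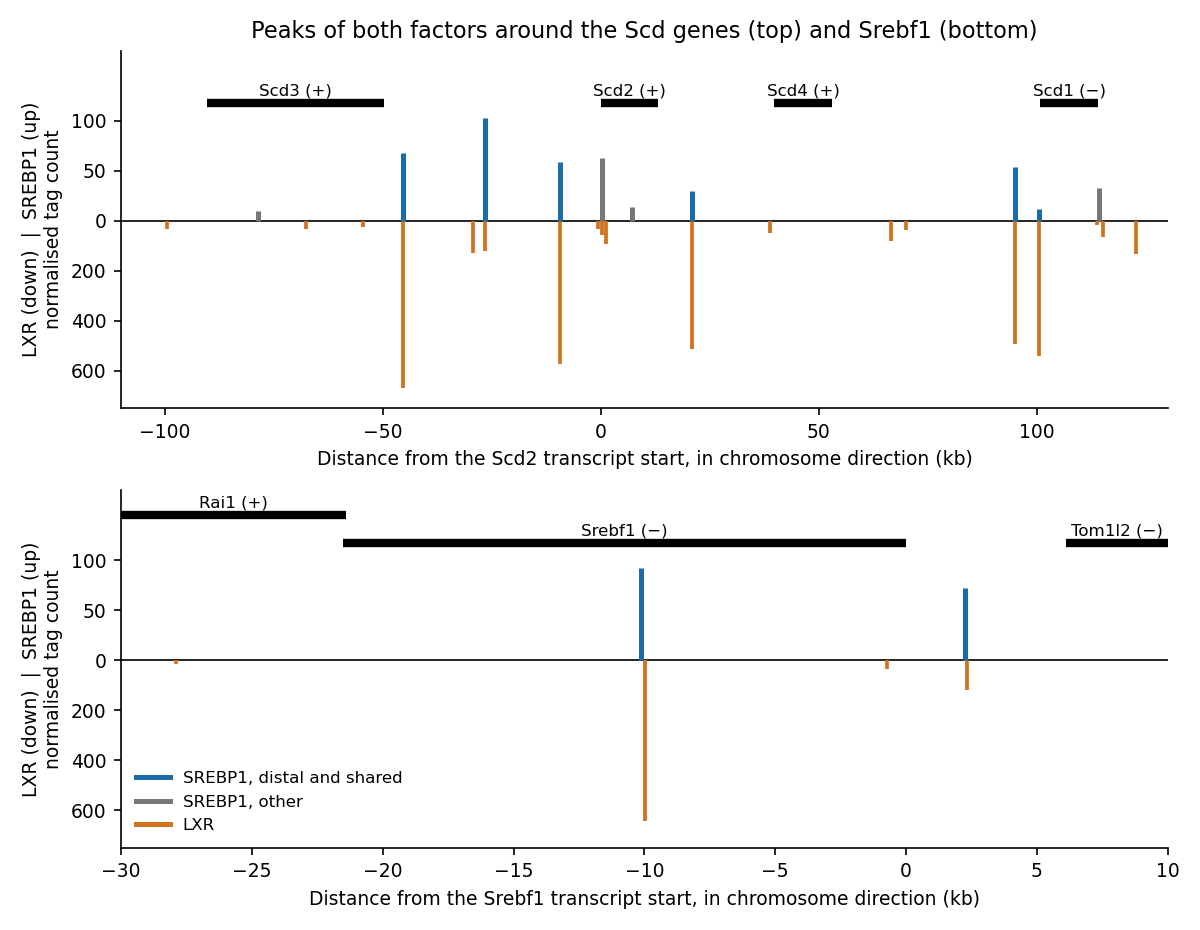
Called peaks around Scd2 (top) and Srebf1 (bottom) by distance from the transcript start in kb, in chromosome direction; bars upward are SREBP1 and bars downward LXR normalised tag counts, with an LXR scale 4 times coarser, blue marking distal shared SREBP1 peaks and grey the others, and black bars listed genes with their strand (microRNA genes and Pkd2l1 are not drawn). Blue bars face LXR bars of 494.6 tags or more at 5 of 6 places in the top panel and at the Srebf1 inside region.

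Other fatty acid genes had single shared regions. Of 22 genes of fatty acid synthesis and desaturation, 8 were nearest to at least 1 (36.4%), against 8.38% of all 24014 genes of the table and 13.6% of the 10605 genes with detected RNA. Besides Aacs, Scd1 and Scd2 these were Elovl5 (39.8 SREBP1 and 84 LXR tags, 6542 bases upstream), Mid1ip1 (28.3 and 101.3, 2331 bases upstream), Elovl6 (27.9 and 25.3, inside the gene), Pgd (20.5 and 137.3) and Hsd17b12 (9.84 and 18.7). Elovl5 and Elovl6 code for elongases of polyunsaturated and saturated fatty acids, Mid1ip1 for an activator of acetyl-CoA carboxylase, and Pgd for an NADPH-producing enzyme. Fasn and Acaca, the central enzymes of fatty acid synthesis, had no shared region within 100 kb, and Fasn had an SREBP1 peak at its start. The share of this list was not tested against that of all genes.

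LXR target genes were nearest to a shared region in 8 of 28 cases (28.6%), against 8.38% of all genes and 13.6% of those with detected RNA. The overlap criterion required an LXR peak, and all 28 had an LXR peak within 100 kb. This share is therefore a description and was not tested. Scd1 and Scd2 are also among the 8 fatty acid genes above, and Srebf1 is also a listed SREBP regulator. The lists therefore overlap. Nr1h3, which codes for LXR alpha, had one 1621 bases upstream (20.9 SREBP1 and 198.6 LXR tags), Cd5l, a macrophage survival factor, one with 10.7 and 218.6 tags, and Apoc4, in the Apoe cluster, one with 9.02 and 130.6. Mertk, a receptor for dying cells, had 14.8 and 56 tags and Arl4c 8.2 and 46.7. The peaks shared 17 bases at Nr1h3, 33 at Cd5l, 149 at Apoc4, 68 at Mertk and 14 at Arl4c. Abca1 was nearest to none. There were 4 regions upstream of its start at 68.00 kb (13.1 SREBP1 and 607.9 LXR tags), 71.29 kb (29.9 and 164), 90.81 kb (13.5 and 89.3) and 143.87 kb (10.2 and 110.6), and the first 3 had 4930522O17Rik as nearest gene. Abcg1 had no shared region within 100 kb and 18 LXR peaks.

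Cholesterol genes were bound by SREBP1 at the start more than through shared distal regions. Of 26 genes of cholesterol synthesis and uptake, 17 had a promoter SREBP1 peak and 4 were nearest to a distal shared peak (15.4%). These 4 were Lipa, the lysosomal acid lipase (14.8 SREBP1 and 89.3 LXR tags, inside the gene), Npc1, the exporter of lysosomal cholesterol (15.2 and 48), Sc5d, a late enzyme of sterol synthesis (11.9 and 64, and 10.2 and 26.7), and Dhcr7, which makes cholesterol in its last step (10.7 and 25.3). Idi1 and Lss had promoter peaks and no shared region within 100 kb. Insig1, the retention factor of the SREBP precursors, had both: a distal shared peak 34101 bases upstream (23 and 164 tags) and SREBP1 at its start. Over all 2013 nearest genes, 637 (31.6%) also had a promoter SREBP1 peak, against 28.5% for distal SREBP1 peaks without LXR and 20.2% of all genes.

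The upstream sequences of Insig1 and Sc5d are shown because an SREBP1 peak that shared no base with an LXR peak lay near each start, while the shared region of the same gene lay far off. Each start also had 1 LXR peak within 1000 bases. Each is the 250 bases before the RefSeq start on GRCm38.p6, on the gene's strand, at chr5:28071162-28071411 (plus strand) and chr9:42264301-42264550 (minus strand). The transcripts span the same distance on the genome, from start to end, in that build as in mm9 (7250 and 10123 bases). The SREBP1 peaks, 33.2 and 43 tags, were centred at −187 and −82 from the starts. Sequences of the distal shared peaks themselves are not shown, because a genome of their build was not used here.
Insig1: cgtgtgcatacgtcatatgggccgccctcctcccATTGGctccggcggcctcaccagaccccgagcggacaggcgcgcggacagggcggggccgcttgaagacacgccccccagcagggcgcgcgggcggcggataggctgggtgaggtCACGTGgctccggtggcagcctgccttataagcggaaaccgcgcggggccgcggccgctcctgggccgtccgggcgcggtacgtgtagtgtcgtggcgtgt
Sc5d: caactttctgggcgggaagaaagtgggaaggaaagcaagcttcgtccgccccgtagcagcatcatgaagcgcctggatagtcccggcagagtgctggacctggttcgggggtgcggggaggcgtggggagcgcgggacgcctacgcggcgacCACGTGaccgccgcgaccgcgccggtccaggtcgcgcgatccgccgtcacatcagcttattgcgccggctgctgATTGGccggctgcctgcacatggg
Capitals mark the E-box CACGTG and the NF-Y letters CCAAT, searched on both strands and here read as ATTGG. Over 32851 RefSeq windows of the same length, CACGTG occurred in 1978 (6.02%) and CCAAT in 11120 (33.8%). The sterol regulatory letters TCACNCCAC, found in 346 windows (1.05%), were in neither sequence.

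Genes outside sterol and fatty acid synthesis made up most of the neighbours. Of 37 macrophage identity genes, 17 were nearest to a distal shared peak (45.9%), among them Tyrobp, a signalling adaptor (32.4 SREBP1 and 49.3 LXR tags), Cebpa (25.8 and 37.3), Irf8 (24.2 and 478.6), Ctsb and Ctsd, lysosomal proteases (25 and 84, 18.9 and 133.3), and the chemokine receptor Ccr2 (18 and 142.6). Of 54 inflammatory genes, 23 were (42.6%), led by the chemokine Ccl3 (39.4 and 54.7), Tnfaip3 and Nfkbia, brakes of NF-kB (24.2 and 234.6, 21.3 and 158.6), Atf3 (17.6 and 455.9), Socs3 (17.6 and 45.3) and Il1b (16.4 and 73.3). Lipid storage and oxidation genes were in 7 of 26 cases (26.9%), with Plin2, the coat of lipid droplets, highest (31.2 and 86.7). Tlr4, the receptor of KLA, had a region 29410 bases from its start (41.4 and 122.6). The share was 6 of 38 for interferon genes (15.8%), 4 of 34 for Toll-like receptor signalling genes (11.8%), 1 of 10 for neutrophil, 1 of 13 for lymphocyte and 1 of 8 for dendritic cell genes. Among all genes with detected RNA the share was 13.6%, and the lists were not tested against it.

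RNA of the nearest genes was then compared between KLA and untreated macrophages, a treatment other than the GW3965 under which the peaks were called. A gene counts as higher or lower when it differed at least 2-fold on the log2(RPKM + 1) scale, a threshold of size and not a test. Of 2013 nearest genes, 1439 passed the filter on low values (1 RPKM in 2 of 6 libraries). At 1 h, 105 of them were higher (7.30%; 3.65% of all genes) and 49 lower (3.41%; 4.09% of all genes). At 6 h, 180 were higher (12.5%; all genes 9.35%) and 449 lower (31.2%; all genes 22.4%). At 12 h the counts were 154 higher (10.7%; all genes 8.88%) and 358 lower (24.9%; all genes 16.3%), and at 24 h 158 higher (11.0%; all genes 9.98%) and 294 lower (20.4%; all genes 10.6%). The share of lower genes was thus above that of all genes at 6, 12 and 24 h. Between the untreated libraries, 18 nearest genes were higher at 24 h (1.25%; all genes 1.72%) and 23 lower (1.60%; all genes 2.42%). The 1, 6 and 12 h comparisons share their untreated library.

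The share of lower genes was smaller at genes nearest the other kinds of distal peak: 23.6%, 19.7% and 14.8% at 6, 12 and 24 h for 2793 genes of SREBP1 peaks without LXR, and 24.7%, 19.2% and 14.0% for 5932 genes of LXR peaks without SREBP1. These sets overlap, since 971 of the 2013 nearest genes also were nearest to a distal SREBP1 peak without LXR. Genes with 2 or more distal shared peaks were lower in 35.2% of cases at 6 h and 25.8% at 24 h, against 30.1% and 19.0% of genes with 1. By SREBP1 tag count, the genes of the highest of 4 equal groups were lower at 6 h in 37.6% of cases and those of the lowest group in 25.3%, with 27.5% against 23.0% at 12 h and 21.6% against 19.6% at 24 h. The untreated level moved with these shares: its median was 12.0 RPKM for the 1439 genes, 9.87 for those of SREBP1 peaks without LXR and 8.15 for all genes, 17.5 with 2 or more regions, and 16.0 and 11.5 in the highest and lowest groups by SREBP1 count. The part of expression level in the shares was not tested. Over the 10605 genes the log2 ratios had medians of −0.46 (6 h) and −0.32 (12 h). With ratios centred on those medians, 257 nearest genes were higher (17.9%; all genes 14.2%) and 253 lower (17.6%; all genes 9.83%) at 6 h, and 211 (14.7%; all genes 12.2%) and 240 (16.7%; all genes 8.73%) at 12 h.

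**Figure D4:**
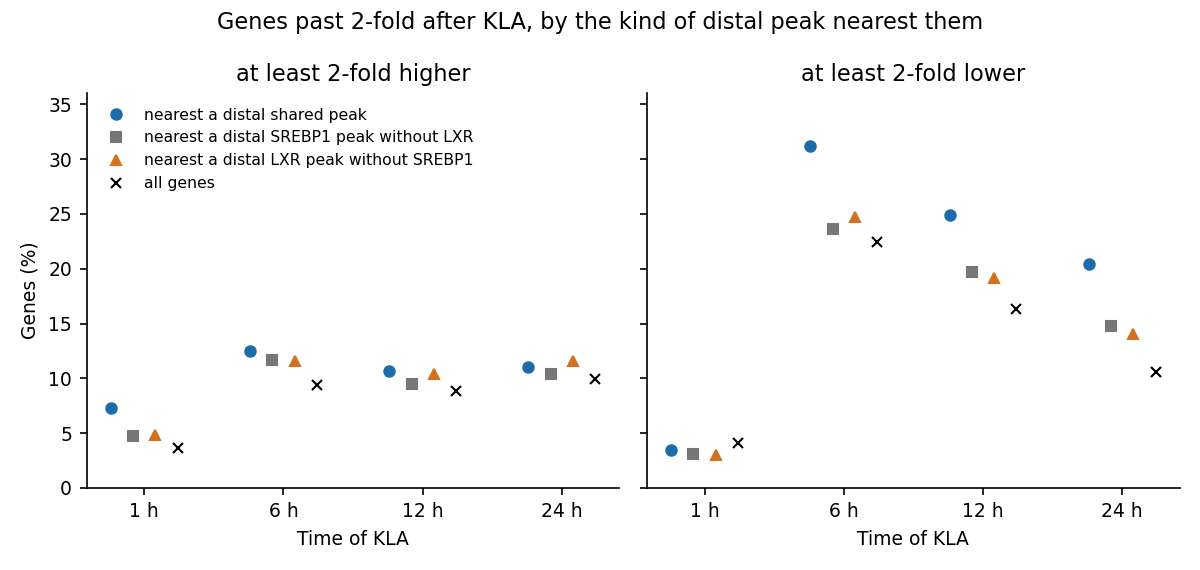
Percent of genes at least 2-fold higher (left) and lower (right) after KLA by hour of treatment, for genes nearest each kind of distal peak and for all genes, from 1 library per condition. In the right panel the distal shared peaks give the highest share at 6, 12 and 24 h (31.2%, 24.9% and 20.4%).

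Srebf1 RNA differed little with KLA, and Insig1 was higher at 1 h. Srebf1 stood at 13.9 RPKM untreated, 15.5, 18.7 and 12.5 at 1, 6 and 12 h, and 8.90 untreated and 10.6 with KLA at 24 h. The untreated libraries differed by as much as any KLA pair. Insig1 went from 38.4 RPKM untreated to 96.2 at 1 h, 45.5 at 6 h and 43.2 at 12 h, with 45.8 and 32.6 in the 24 h pair. The 1 h value stood alone above the others, 2.51 times the untreated one (exact 95% interval 2.15 to 2.93 on recovered reads).

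Among the 8 fatty acid genes with a shared region, 3 were lower at 6 h (Elovl5, Mid1ip1 and Scd2), 2 at 12 h, 1 at 24 h, and none was higher at any time. In the whole list, 5 of 18 detected genes were lower at 6 h, 3 at 12 h and 2 at 24 h. Of all genes, 22.4%, 16.3% and 10.6% were lower at these times. Elovl5 had 35.7 RPKM untreated, then 23.4, 9.55 and 9.55, and 47.8 against 24.3 at 24 h. At 6 h it was 3.74-fold lower (2.81 to 5.03), and each KLA library was below its untreated one. Mid1ip1 had 39.9 RPKM untreated, then 44.8, 16.6 and 15.3, and 47.2 against 25.5, so it was low from 6 h on. Scd2 had 24.8 RPKM untreated, then 16.4, 7.35 and 16.0, and 48.5 against 41.3. It was lowest at 6 h (3.38-fold lower, 2.67 to 4.30), and the untreated libraries differed 1.96-fold (1.70 to 2.25). Scd1 was low throughout, at 2.53, 2.93, 1.66 and 3.46 RPKM and 7.67 against 7.03. Scd3 and Scd4 were at or near 0. The Scd genes are close copies, and the sources used here do not say how reads shared between them were counted. Aacs had 11.9 RPKM untreated, 11.7, 7.04 and 10.3 with KLA, and 16.2 against 7.07 at 24 h, where it was 2.29-fold lower (1.68 to 3.16).

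Of the lipid lists, genes of lipid storage and oxidation next to shared regions had the lowest median ratios from 6 h on. Of the 7, 5 were lower at 6 h, 6 at 12 h and 5 at 24 h. In the whole list, 13, 13 and 8 of 23 detected genes were lower at these times. Of all genes, 22.4%, 16.3% and 10.6% were. Median log2 ratios were −2.12, −1.63 and −1.53 for the 7, against −1.19, −1.24 and −0.74 for the 23. Pparg, the nuclear receptor of fat storage, had 64.1 RPKM untreated, 70.2, 5.01 and 2.77 with 1, 6 and 12 h of KLA, and 64.0 against 3.59 in the 24 h pair. It was 12.8-fold lower at 6 h (8.20 to 21.1) and 17.8-fold lower at 24 h (10.9 to 31.0). In bulk RNA, fewer cells with a transcript and less transcript per cell cannot be told apart. Cd36, the fatty acid scavenger receptor, had 1337 RPKM untreated, 1238, 743 and 476 with KLA, and was 268 against 1496 at 24 h (5.59-fold lower, 5.35 to 5.84). Fabp4, a fatty acid carrier, had 834 RPKM untreated, 1846, 103 and 136 with KLA, and 721 against 74.2 in the 24 h pair. It was thus above its control at 1 h (2.21-fold, 2.07 to 2.37) and below it afterwards. Plin2 had 810, 612, 246 and 256 RPKM, and 547 against 189. Soat1, which esterifies cholesterol, had 190, 150, 36.2 and 60.6 RPKM, and 224 against 84.9. Both were less than 2-fold below control at 1 h and more than that from 6 h on.

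Of 24 detected cholesterol list genes, 3 were lower at 6 h, when 22.4% of all genes were. All 3 had a shared region, and a link between region and RNA was not tested. Lipa had 1171 RPKM untreated, 1002, 323 and 246 with KLA, and 1275 against 168 at 24 h, where it was 7.60-fold lower (7.17 to 8.05). Npc1 had 70.4, 64.7, 27.0 and 31.6 RPKM and 74.4 against 47.1, and Dhcr7 19.8, 18.8, 4.19 and 7.98 RPKM and 29.7 against 13.0. Sc5d, the other gene with shared regions, was less than 2-fold below control until 12 h (63.3, 58.6, 54.9 and 46.5 RPKM) and lower at 24 h (101 against 34.4, 2.94-fold, 2.50 to 3.46). At 24 h, 7 of the 24 detected genes were lower, with Sc5d, Lipa and Dhcr7 among them (10.6% of all genes were lower). Hmgcs1 was listed at 0 in every library, but its transcript used here lay on 13_random and not on a placed chromosome. Neither this 0 nor its lack of SREBP1 peaks can therefore be read as absence. It is among the 26 list genes counted for peaks above.

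LXR target genes with shared regions varied. Of 7 detected, 2 were lower at 6 h (Scd2 and Arl4c; 22.4% of all genes were), 1 at 12 h (Cd5l) and none at 24 h, and none was higher at any time. In the whole list of 21 detected genes, 5 were lower and 3 higher at 6 h, 3 and 3 at 12 h, and 2 lower and 5 higher at 24 h. Of all genes, 9.35%, 8.88% and 9.98% were higher at 6, 12 and 24 h. The lower share was 16.3% at 12 h and 10.6% at 24 h. Cd5l differed between the untreated libraries themselves, at 77.1 and 17.8 RPKM. Abca1, which had 4 shared regions upstream but was nearest to none, had 5.79 RPKM untreated, 9.34, 13.2 and 15.9 with KLA, and was 29.8 against 12.9 at 24 h. The 24 h untreated library was itself 2.23-fold above the other (1.82 to 2.75), as large a step as the KLA difference at 24 h (2.31-fold, 2.03 to 2.63).

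Inflammatory genes with shared regions were high after KLA, as was the list as a whole. At 1 h, 19 of 23 were higher and none lower, against 45 of 53 for all detected genes of the list. At 6 h, 19 of 23 were higher, against 48 of 53. Of all genes, 3.65% were higher at 1 h and 9.35% at 6 h. Il1b, a pyrogenic cytokine, had 6.84 RPKM untreated, 2095, 4048 and 2485 with KLA, and 2.62 against 801 at 24 h. Nfkbia had 26.4 RPKM untreated, then 1574, 440 and 337, and 20.3 against 256. Tnfaip3 had 15.3, then 544, 150 and 91.1, and 13.6 against 95.1. Both inhibitors peaked at 1 h and Il1b at 6 h, with no KLA library near its control. Ccl3 had 73.0 RPKM untreated, 2237, 4203 and 2012 with KLA, and 73.0 against 1156. Atf3, with its high LXR count, stayed within 2-fold: 337, 341, 307 and 306 RPKM, and 311 against 245. All 6 interferon genes with shared regions were higher at 24 h, as were all 38 of the list and 9.98% of all genes. Cxcl10, an interferon-induced chemokine, had 8.25, 241, 3643 and 1513 RPKM and 8.09 against 1213, so it was above its control in each KLA library and highest at 6 h.

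Macrophage genes with shared regions went both ways. Of 16 detected, 4 were lower and 3 higher at 6 h, against 8 lower and 6 higher of 35 for the list. At 24 h, 7 were lower and 3 higher, against 11 lower and 9 higher of 35 for the list. Of all genes, 22.4% were lower and 9.35% higher at 6 h, and 10.6% and 9.98% at 24 h. Cebpa had 78.6 RPKM untreated, 27.5, 7.36 and 25.3 with KLA, and 59.4 against 26.7, lowest at 6 h (10.7-fold lower, 7.88 to 14.8). Ctsd had 11594, 8979, 5206 and 4822 RPKM, and 8180 against 3475. Irf8 had 46.2, 23.0, 83.2 and 82.7 RPKM, and 47.0 against 117, below its control at 1 h and above it later. Summed over the macrophage list, the level was 43977 and 36330 RPKM in the untreated libraries and 20112 to 38214 with KLA, and its part in these values was not tested. Tlr4 had 26.4, 17.2, 15.5 and 12.8 RPKM, and 43.0 against 27.4, below its control in each KLA library.

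**Figure D5:**
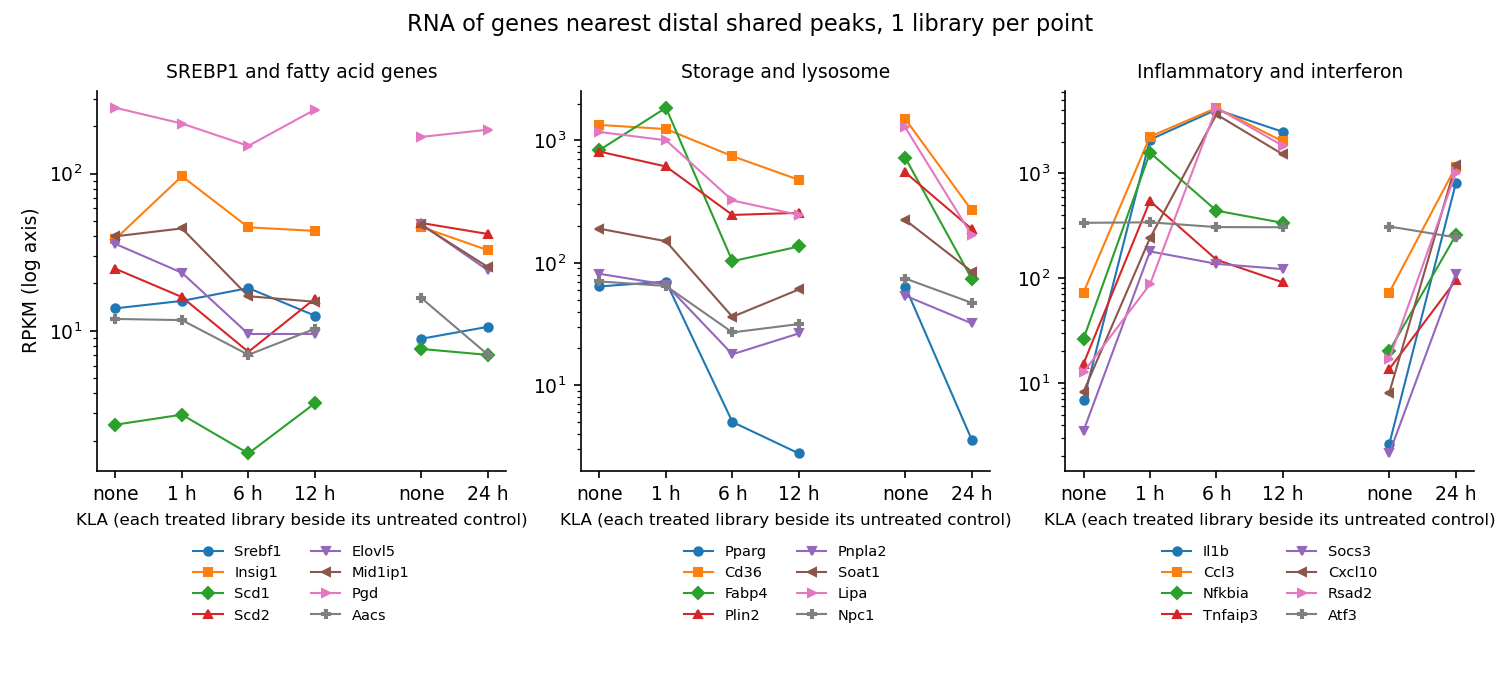
RPKM on a logarithmic axis of 24 genes nearest distal shared peaks, in each of the 6 libraries; a point is 1 library and a line joins each untreated library to its KLA times. Pparg drops from 64.1 to 5.01 RPKM at 6 h in the middle panel, and in the right panel all genes but Atf3 lie above their untreated value in every KLA library.

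At the extremes over all 1439 genes, the highest log2 ratio was that of Il1b at 1 h (8.06) and 6 h (9.01) and that of Ccl5 at 12 h (8.98) and 24 h (8.42). Nfkbia, Nlrp3, Egr1 and Socs3 followed at 1 h (5.84, 5.64, 5.48 and 5.33), Cxcl10, Ccl5, Rsad2 and Il27 at 6 h, Il1b, AW112010, Cxcl10 and Fpr2 at 12 h, and AW112010, Il1b, Fpr2 and Cxcl10 at 24 h. The lowest were Gadd45g (−2.86) and Fbxo32 (−2.02) at 1 h, Tsc22d3 (−4.40), Susd3, Fbxo32, Mknk2 and Sesn1 at 6 h, Susd3, Mamdc2, Pparg and Tmem154 at 12 h, and Mamdc2 (−5.68), Fam198b, Cd300lb and Pparg at 24 h. Mir7676-2, Mir5625, Mir5114 and Mir5130 were also among the lowest but rested on at most 16 reads in any library. Mamdc2 had 241 RPKM untreated, 207, 78.3 and 11.8 with KLA, and 263 against 4.15 at 24 h. Fbxo32, a ubiquitin ligase subunit, had 36.2, 8.17, 1.64 and 5.36 RPKM, and 41.0 against 8.03, and Tsc22d3, the glucocorticoid-induced leucine zipper, 83.5, 21.6, 2.99 and 16.0, and 97.2 against 24.5. Both were lowest at 6 h, while Mamdc2 was lower at each later time.

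Among the neighbours with the highest SREBP1 counts, RNA went in different directions. Filip1l had 2.37 RPKM untreated, 17.4, 21.6 and 17.3 with KLA, and 3.45 against 28.1, above its control in all 4 comparisons. These values belong to its transcript at chr16:57549355-57572917, which does not contain the peak. The peak lay inside its other listed transcript, 38252 bases from that start, and also inside Cmss1. A link between the peak and this RNA was not tested. Tnfrsf21, a death receptor, had 23.0, 20.6, 5.23 and 7.10 RPKM, and 28.3 against 9.28, and was 4.40-fold lower at 6 h (3.16 to 6.24). Of the genes with most shared regions, Cmklr1 had 8.13, 10.1, 28.7 and 45.3 RPKM, and 10.1 against 30.2, Tomm20 had 7.64, 5.93, 3.38 and 2.87, and 7.83 against 2.55, and Rreb1 had 5.29, 5.06, 2.46 and 2.14, and 5.61 against 2.80. Cmklr1 was thus above its control from 6 h and the other 2 below. Sspn and A230028O05Rik, with 7 and 6 regions, did not reach the filter, at no more than 0.263 and 1.02 RPKM.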

How the data were processed

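ChIP-seq peak lists and an RNA table of thioglycollate-elicited macrophages were used as deposited. Per the submitters' processing notes, Bowtie 0.12.7, STAR and HOMER were used with mm9. Per the file headers, peaks were called with HOMER findPeaks (false discovery rate 0.001, at least 4-fold over input and over the local 10000 bases), and the authors gave each peak a tag count (signal normalised to 10000000 tags), input tags, a score and a fold ratio over input. The deposited RNA values are RPKM with the transcript length in bases. Peak ends were read as half-open. Each gene was its transcript of highest mean RPKM, which for some genes, such as Filip1l, was not the transcript nearest the peak. Whole reads were recovered from RPKM (99.98% of values within 0.01 read), giving 2205187 to 2674826 per library, and exact conditional binomial 95% intervals on ratios. Ratios used log2(RPKM + 1). Differential tests were not run, since each condition had 1 library. Scripts were tested on simulated data with Python 3.11.15, pandas 2.3.3, NumPy 2.4.6 and SciPy 1.17.1. Promoter sequences are RefSeq's (GRCm38.p6).

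The regions and gene lists were chosen with earlier results of these data known. Named regions were the 10 highest by each factor and those nearest a sterol, fatty acid, SREBP regulator or LXR target gene. Named genes were their neighbours, the 8 with most regions, 6 per other list by SREBP1 count, and the 5 highest and lowest ratios per time. Further genes (Abca1 and its regions, Abcg1, Idi1, Lss, Fasn, Acaca, Hmgcs1, Scd3 and Scd4) and the genes at the thresholds, in the groups of 4 and with high input were named outside that rule. Some genes that the rule would name are not reported here.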

Additional observations from a re-analysis of the deposited data

How the results depend on the processing

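The number of distal shared peaks was 2555, and 1427 when at least 97 bases had to be shared, 812 with centres within 50 bases, and 1630 of 7285 among the taller SREBP1 peaks, those at or above the list's median tag count. Genes at least 2-fold lower at 1 h numbered 49, and 92 with a pseudocount of 0.1, 21 with 3, 28 with 5 RPKM required in 2 libraries, 32 with centred ratios and 76 with the other untreated library as control. At 6 h the 449 lower genes became 253 with centred ratios. The other 71 of 80 settings stayed within 1.5 times. The share of nearest genes was above that of all genes in 9 of 9 settings for each count but lower at 1 h, where it was in 3 of 9. Settings chosen after seeing the data gave 2567 regions with inclusive peak ends and 2549 without the 6 of high input. No paired analysis was possible because each condition had 1 library. Depth of 2205187 to 2674826 reads limits genes with few reads, and no count has a replicate check.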
